A study of Mus musculus with 4 samples.

Results

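The sites described are isolated CCGG sites of CCGG-rich megabases in the mouse genome, called member sites. They were chosen by position alone, on coordinates of genome build mm9. A member site lies on an autosome, has no other CCGG within 500 bp, and sits in a 1 Mb bin that holds at least 1000 CCGG positions. It also lies more than 10 kb from any dense site, which is a CCGG with at least 10 CCGG positions within 500 bp (itself included), the spacing of a CpG island. The rule found 66501 member sites among 1594137 CCGG positions, or 4.17%. Member sites were compared mainly with 3 other sets of isolated autosomal sites. Of these, 284448 lay in mid-density megabases (500 to under 1000 CCGG positions) and 171806 in CCGG-poor megabases (under 500), all more than 10 kb from a dense site. The remaining 13492 lay in the same CCGG-rich megabases but within 10 kb of a dense site.

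All libraries came from MC1-ZE7 cells, a mouse embryonic stem (ES) cell line of strain 129S6/SvEvTac at passage 31. The line carries a reporter in which the promoter of Zscan4c drives the fluorescent protein Emerald, so both fractions hold the transgene. Cells grew without feeders on gelatin, in medium with serum and leukemia inhibitory factor, and were sorted into an Emerald-high and an Emerald-negative fraction. Emerald reads the reporter's promoter, and no expression data were used here to check the sort or the cell state. DNA of each fraction was cut with HpaII or with MspI and made into HELP tag libraries, 1 library for each enzyme and fraction. The Emerald-high fraction gave 5662614 HpaII and 9372711 MspI tags, and the Emerald-negative fraction 9535691 and 9307616. Differences between the fractions therefore have no check by replicates. Intervals are 95%. Those on log2 values cover only counting error. Those on shares of sites are exact binomial ones that treat sites as independent draws. Neither kind covers variation between libraries. Copies of a molecule made in amplification cannot be recognised.

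HpaII and MspI both recognise CCGG. HpaII is blocked by methylation of the central CpG and MspI is not, so HpaII tags relative to MspI tags fall as methylation increases. Most CpGs of mammalian genomes stand outside CpG islands and are methylated, while CpG islands are mostly unmethylated. Zscan4 genes mark the early embryo and a transient state of ES cells that is known for telomere maintenance and has been linked to reduced DNA methylation. Megabases rich in CCGG are in general rich in GC and in genes. The measure used throughout is the log2 ratio of HpaII to MspI tags, each scaled to its library's total, in Emerald-high minus Emerald-negative cells. It is positive where HpaII cut relatively more in Emerald-high cells. Because of the scaling, it is relative to each library's average site, and a shift common to all sites cannot be seen.

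The rule gathers the members into a small part of the genome. Of 2417 autosomal megabases with CCGG positions, 265 (10.96%) reached 1000, against a median of 557. They hold 21.4% of all autosomal CCGG positions. Each contributed 122 to 338 member sites, with a median of 254. All 19 autosomes had members, from 753 on chromosome 13 to 8109 on chromosome 4. Chromosomes 4, 5 and 11 together held 34.2% of them. The median member lay 48.5 kb from the nearest dense site (quartiles 25.2 and 94.8 kb) and 881 bp from the nearest other CCGG (quartiles 650 and 1298 bp). The 265 megabases fell into 120 runs of neighbouring bins, of which 57 were a single bin. The longest run spanned 14 megabases on chromosome 4, from 128000001 to 142000000, with 3538 member sites.

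Member sites were often seen in these libraries. The Emerald-high MspI library had tags at 79.97% of them (exact interval 79.7 to 80.3) and the Emerald-negative one at 81.3% (81.0 to 81.6), against 65.2% and 65.5% of isolated sites in CCGG-poor megabases. HpaII tags were found at 61.6% (61.2 to 62.0) and 59.1% (58.7 to 59.4) of member sites, although the Emerald-high HpaII library was the shallowest. No MspI tag was seen in either library at 9232 members (13.9%), and 1411 of those held an HpaII tag. All 4 libraries had a tag at 30465 members (45.8%). The typical member was thinly covered, with a median of 4 tags in each MspI library and 1 in each HpaII library, so most values below come from summed tags.

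HpaII cutting at member sites was relatively higher in Emerald-high cells. In the Emerald-high fraction 198784 HpaII and 376345 MspI tags fell on members, and in the Emerald-negative fraction 280929 and 417842. They thus made up 3.51% of Emerald-high and 2.95% of Emerald-negative HpaII tags. Their share of MspI tags went the other way, 4.02% in the Emerald-high and 4.49% in the Emerald-negative fraction. The scaled HpaII/MspI ratio was 0.874 in the Emerald-high and 0.656 in the Emerald-negative fraction, a 1.33-fold difference and a log2 difference of 0.41 (0.403 to 0.424). Taken alone, the HpaII libraries differed by 0.25 (0.245 to 0.261) and the MspI pair by -0.16 (-0.167 to -0.155). MspI cutting does not depend on methylation, so the MspI difference does not measure it, and 0.16 of the 0.41 comes from those libraries. What moved the MspI libraries was not tested.

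The 2 parts into which the deposited tags of each site are divided gave log2 HpaII/MspI differences of 0.39 (0.380 to 0.410) and 0.43 (0.418 to 0.447). Each autosome gave a positive value. Over the 19 autosomes, which belong to the same libraries and are not replicates, the mean was 0.42 ± 0.07 (SD). The lowest was 0.29 (0.205 to 0.366) on chromosome 3, with 1047 members, and the highest 0.61 (0.503 to 0.710) on chromosome 13, with 753. The HpaII libraries alone ranged from 0.15 to 0.42 over the autosomes and the MspI libraries from -0.19 to -0.12. The range over autosomes was thus wider in the HpaII libraries, which also have fewer tags here.

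In summed tags, member sites were more cut by HpaII in both fractions than isolated sites of mid-density and CCGG-poor megabases, and differed less between the fractions. In Emerald-negative cells the scaled HpaII/MspI ratio was 0.656 at members, 0.480 at mid-density and 0.428 at CCGG-poor isolated sites. In Emerald-high cells it was 0.874, 0.704 and 0.602. The order of mid-density and CCGG-poor sites depended on a few piled-up positions, described further on. With those positions left out, the Emerald-negative ratios were 0.623 at members, 0.453 at mid-density and 0.521 at CCGG-poor sites. The Emerald-high ratios were then 0.823, 0.659 and 0.745. Members thus stayed above both sets, but CCGG-poor sites stood above mid-density ones in both fractions. Among sites with enough MspI tags for a score (described further on), CCGG-poor sites were not lower than members, with median scores of 29.3 and 16.2 against 28.1 and 15.2. Isolated sites of the same megabases within 10 kb of a dense site had higher ratios than members, at 1.00 in the Emerald-negative and 1.23 in the Emerald-high fraction. The log2 HpaII/MspI difference between the fractions was 0.29 (0.274 to 0.316) at those near sites, 0.41 at members, 0.55 (0.547 to 0.558) in mid-density megabases and 0.49 (0.486 to 0.499) in CCGG-poor ones.

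**Figure D1:**
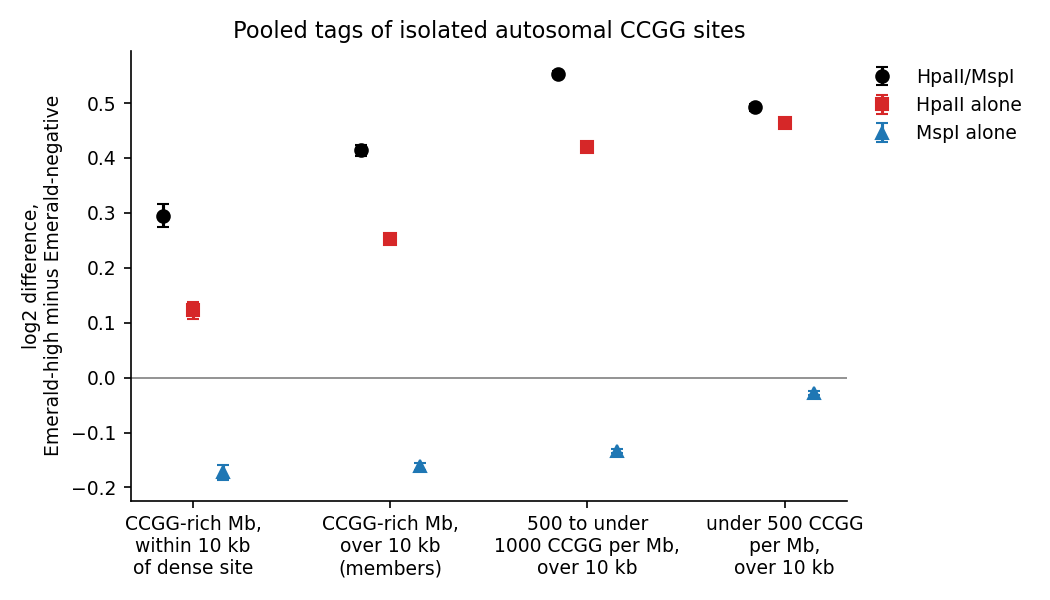
Log2 difference between Emerald-high and Emerald-negative cells (vertical axis) for 4 sets of isolated autosomal sites, from tags summed over each set and scaled to library totals, with 95% Poisson intervals. HpaII alone (squares) goes from 0.12 near dense sites through 0.25 at members to 0.42 and 0.46. MspI alone (triangles) is negative in all 4 sets, and its highest value is -0.03 in CCGG-poor megabases.

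The members' HpaII/MspI difference was 0.14 below that of mid-density isolated sites (difference -0.14, -0.150 to -0.127), with members lower on 18 of 19 autosomes. It exceeded that of isolated sites near dense sites by 0.12 (0.0955 to 0.142), with members higher on 16 of 19. Against CCGG-poor isolated sites it was lower by a smaller margin, -0.08 (-0.0910 to -0.0662), on 17 of 19 autosomes. In that comparison HpaII alone gave -0.21 (-0.221 to -0.201) and MspI alone -0.13 (-0.140 to -0.125), each lower at members on 19 of 19 autosomes. Against mid-density sites both were lower too, by differences of -0.17 and -0.03, on 19 and 18 of 19. Against sites near dense ones they differed by 0.13 and 0.01 (-0.00409 to 0.0272). The CCGG-poor value also rests partly on a few piled-up positions: 222 of its sites are among the 1594 sites (0.1%) with most MspI tags, and hold 30.3% of its Emerald-high MspI tags. For members these figures are 61 sites and 1.64%. Without the most tagged sites the members stood at 0.40 and CCGG-poor sites at 0.52, a difference of -0.12 (-0.128 to -0.102).

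The HpaII/MspI comparison with CCGG-poor megabases depended on how far the nearest other CCGG lay. Restricted to sites with no other CCGG within 1000 bp, it was -0.01 (-0.0290 to 0.00655), an interval that includes 0. Among sites whose nearest CCGG was at most 1000 bp away, members were below CCGG-poor sites by 0.16 (difference -0.16, -0.177 to -0.137). Between 1000 and 2000 bp the difference was -0.05 (-0.0678 to -0.0246), and beyond 2000 bp it was 0.04 (0.00278 to 0.0722). Without the most tagged sites these last values became -0.08 (-0.100 to -0.0548) and -0.00 (-0.0399 to 0.0311). The restriction to 1000 bp was not run without those sites. HpaII alone was lower at members in all 3 distance classes, by differences of -0.24, -0.22 and -0.03 (-0.0584 to -0.000569). Without the most tagged sites these were -0.24, -0.15 and -0.07. In HpaII/MspI, members were lower than mid-density sites in all 3 distance classes, by differences of -0.12, -0.13 and -0.10.

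Distance to the next CCGG also ordered the members themselves. The 39316 members with a neighbour at most 1000 bp away had a log2 HpaII/MspI difference of 0.38 (0.362 to 0.389). The 21217 with the nearest between 1000 and 2000 bp had 0.46 (0.441 to 0.477), and the 5968 beyond 2000 bp had 0.53 (0.501 to 0.567). The widest class exceeded the narrowest by 0.16 (0.122 to 0.194), by 0.20 in the HpaII libraries and by 0.04 in the MspI libraries. The level in Emerald-negative cells ran the opposite way. The scaled HpaII/MspI ratio there was 0.754, 0.574 and 0.461 from the narrowest to the widest class. In the log2 HpaII/MspI difference, mid-density isolated sites had the same order as members, at 0.49, 0.59 and 0.63. CCGG-poor sites had 0.53, 0.51 and 0.50, or 0.52, 0.53 and 0.51 without the most tagged sites.

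At members, distance to the nearest dense site gave a shallower gradient of the same kind. The HpaII/MspI difference was 0.38 (0.359 to 0.407) for the 11569 members at 10 to 20 kb and 0.39 (0.375 to 0.411) for the 22456 at 20 to 50 kb, which overlap. It was 0.42 (0.395 to 0.437) for the 17037 at 50 to 100 kb and 0.48 (0.458 to 0.503) for the 15439 beyond 100 kb. The farthest class exceeded the nearest by 0.10 (0.0643 to 0.131), all of it in the HpaII libraries (0.10), with a difference of -0.00 (-0.0212 to 0.0190) in the MspI libraries. HpaII/MspI in Emerald-negative cells fell along the same classes, from 0.764 through 0.713 and 0.626 to 0.532. When both distances were crossed, the 12 combinations ranged from 0.34 to 0.58. The highest was beyond 2000 bp from a CCGG and 100 kb from a dense site, with 1587 members. By distance to a dense site alone, mid-density isolated sites rose from 0.46 at 10 to 20 kb to 0.60 beyond 100 kb. CCGG-poor ones had 0.54, 0.47, 0.55 and 0.49 from the nearest to the farthest class.

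The CCGG content of the megabase ordered members too, with smaller differences in richer bins. In the 163 least rich bins, with 1003 to 1245 CCGG positions, 42385 members had a difference of 0.45 (0.433 to 0.460). In the next 74, with 1251 to 1495, 18108 members had 0.39 (0.368 to 0.408), and in the 28 with 1507 to 2104, 6008 members had 0.29 (0.257 to 0.324). The richest bins lay below the least rich by a difference of -0.16 (-0.191 to -0.120), and the ratio in Emerald-negative cells was 0.825 there against 0.616. Outside the members, isolated sites more than 10 kb from a dense site had differences of 0.50 in bins with at least 800 CCGG, 0.57 from 600 to 800, 0.59 from 500 to 600 and 0.55 from 400 to 500. Below that the values went down, to 0.47 from 300 to 400 and 0.42 under 300, so the order in HpaII/MspI held only down to about 500 CCGG per megabase. Between 500 to 600 and 300 to 400 CCGG, HpaII alone went from 0.47 to 0.48 and MspI alone from -0.11 to 0.01. Under 300 they stood at 0.38 and -0.04. The bins under 500 form the CCGG-poor set with its piled-up positions, and these classes were not run without the most tagged sites.

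**Figure D2:**
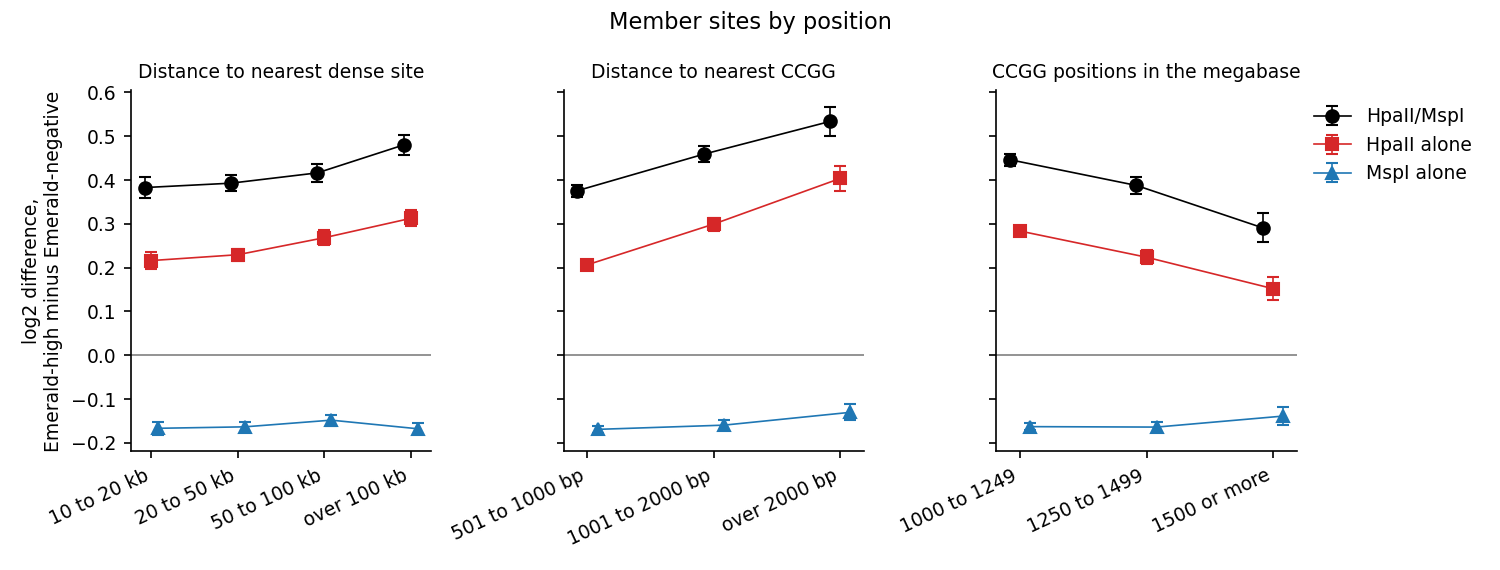
Log2 difference between Emerald-high and Emerald-negative cells at member sites (vertical axis) by distance to the nearest dense site, distance to the nearest other CCGG, and CCGG positions in the megabase, with 95% Poisson intervals. The HpaII/MspI value goes from 0.38 to 0.48, from 0.38 to 0.53 and from 0.45 to 0.29 across the 3 panels, while the MspI libraries stay between -0.17 and -0.13.

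Values just inside and just outside the thresholds of the rule were close for 2 of the 3. Isolated sites of megabases up to 50 CCGG above the limit of 1000 had a difference of 0.48 (0.457 to 0.509), and those up to 50 below it also 0.48 (0.454 to 0.502). At 10 to 12 kb from a dense site the value was 0.36 (0.311 to 0.416), and at 8 to 10 kb, outside the rule, 0.35 (0.299 to 0.396). Members with a neighbour at 600 bp or less had 0.35 (0.321 to 0.371), with -0.16 in the MspI libraries. Sites with a single neighbour at 400 to 500 bp, which are not isolated by the rule, had 0.28 (0.258 to 0.304), with -0.12 in the MspI libraries, so here the intervals did not overlap. Lying in the distal 10 Mb of a chromosome made no detectable difference to HpaII/MspI: the 13691 members there differed from the rest by -0.01 (-0.0359 to 0.0163). In the MspI libraries alone they differed by 0.02 (0.00202 to 0.0333).

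Within the CCGG-rich megabases, the isolated sites stood apart from their neighbours. Sites there that were neither isolated nor dense (213947 sites) had a log2 HpaII/MspI difference of -0.16 (-0.168 to -0.159), and dense sites (31615) had -0.72 (-0.731 to -0.703). Their ratios in Emerald-negative cells were 1.45 and 5.66. In the same DNA regions, HpaII cutting relative to the library average was thus higher at isolated sites and lower at dense ones in the Emerald-high fraction. When the libraries were scaled to all dense sites instead, members stood at 1.13 (1.12 to 1.14).

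Single-site scores showed how cutting was distributed over the members. The score is an angle, 0 with no HpaII tag and 50 with equal scaled HpaII and MspI tags, and was taken where both MspI libraries had 10 or more tags. Of the members, 10045 (15.1%) were covered in this way. Their scores had a median of 28.1 (quartiles 13.0 and 48.4) in the Emerald-high fraction and of 15.2 (5.17 and 34.2) in the Emerald-negative one. Rarely cut sites, with scores under 20, were 36.7% (35.8 to 37.7) of covered members in the Emerald-high and 58.4% (57.4 to 59.4) in the Emerald-negative fraction. No HpaII tag was found at 7.78% (7.27 to 8.33) and 12.8% (12.1 to 13.4).

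Highly cut members had close shares in the 2 fractions. Scores over 80 were found at 329 Emerald-high members (3.28%) and 327 Emerald-negative members (3.26%), and at 201 in both. In CCGG-poor megabases these shares were 1.88% and 1.53% of 25160 covered sites, and in mid-density ones 2.11% and 1.86% of 46953. At isolated sites near dense sites they were 7.68% and 5.92% of 1926. Site by site, 7143 covered members (71.1%) scored higher in the Emerald-high fraction. The score was lower at 2554 (25.4%) and equal at 348. Scores crossed the limit of 20 upward, from Emerald-negative to Emerald-high cells, at 2566 members and downward at 389. Levels depend on the scaling: with dense sites as the scale, median scores were 8.90 and 2.80, and 79.4% and 92.5% of covered members scored under 20.

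**Figure D3:**
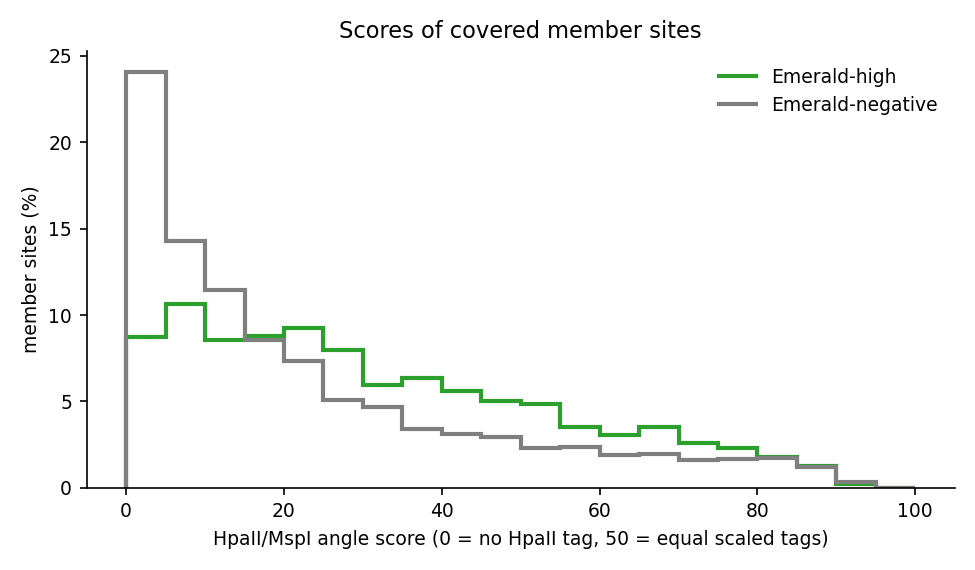
Share of the 10045 covered member sites (vertical axis, percent) by HpaII/MspI score in bins of 5 (horizontal axis). In Emerald-negative cells 24.1% of sites scored under 5, against 8.74% in Emerald-high cells, and the curves meet above a score of 80.

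The difference at members depended on their level of HpaII cutting in the Emerald-negative fraction. To keep sorting and measuring apart, Emerald-negative scores from the first part of the tags sorted 14925 members with at least 10 summed MspI tags there, and differences come from the second part. In the second part, the 8761 members scoring under 20 had 7010 HpaII tags from the Emerald-high and 6734 from the Emerald-negative library. Their HpaII tags differed by 0.81 (0.761 to 0.857) and HpaII/MspI by 0.99 (0.940 to 1.05). The 2809 members at 20 to 40 had an HpaII difference of 0.48 (0.425 to 0.545), the 1622 at 40 to 60 one of 0.25 (0.193 to 0.316), and the 1129 at 60 to 80 one of 0.01 (-0.0424 to 0.0672). Relative to MspI these 3 strata had 0.70 (0.624 to 0.770), 0.44 (0.352 to 0.520) and 0.11 (0.0258 to 0.201). The 604 members over 80 held 3454 and 6548 HpaII tags. They were lower in Emerald-high cells in the HpaII libraries, at -0.17 (-0.231 to -0.112), but not detectably relative to MspI, at -0.04 (-0.151 to 0.0798). Lowest and highest strata differed by 0.98 (0.904 to 1.06) in the HpaII libraries and by -0.05 (-0.151 to 0.0531) in the MspI libraries. Other isolated sites had such a gap too. In the HpaII libraries it was 1.10 in mid-density megabases, 1.07 in CCGG-poor ones and 0.71 near dense sites.

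Members were spread over these strata differently from other isolated sites. Sites over 80 made up 4.05% of the sorted members, 2.35% of mid-density and 1.69% of CCGG-poor isolated sites. Sites under 20 made up 58.7%, 66.7% and 57.0%. Isolated sites of the CCGG-rich megabases within 10 kb of a dense site went further, with 7.24% over 80 and 45.9% under 20. Stratum by stratum, the HpaII/MspI difference of members minus CCGG-poor sites was 0.07 (0.0155 to 0.134) under 20, 0.07 (-0.0179 to 0.150) at 20 to 40, 0.02 (-0.0754 to 0.117) at 40 to 60, -0.08 (-0.183 to 0.0247) at 60 to 80 and -0.00 (-0.150 to 0.145) over 80. The first of these became 0.02 (-0.0437 to 0.0839) without the most tagged sites. The other strata were not run without those sites. Intervals that include 0 do not show that the sets are alike. The HpaII libraries alone were lower at members in the stratum under 20, by a difference of -0.23 (-0.284 to -0.176), and by -0.08 (-0.136 to -0.0213) without the most tagged sites. They were also lower at 40 to 60, 60 to 80 and over 80, by differences of -0.08 (-0.149 to -0.00786), -0.12 (-0.183 to -0.0517) and -0.14 (-0.220 to -0.0673), while the interval at 20 to 40 included 0.

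**Figure D4:**
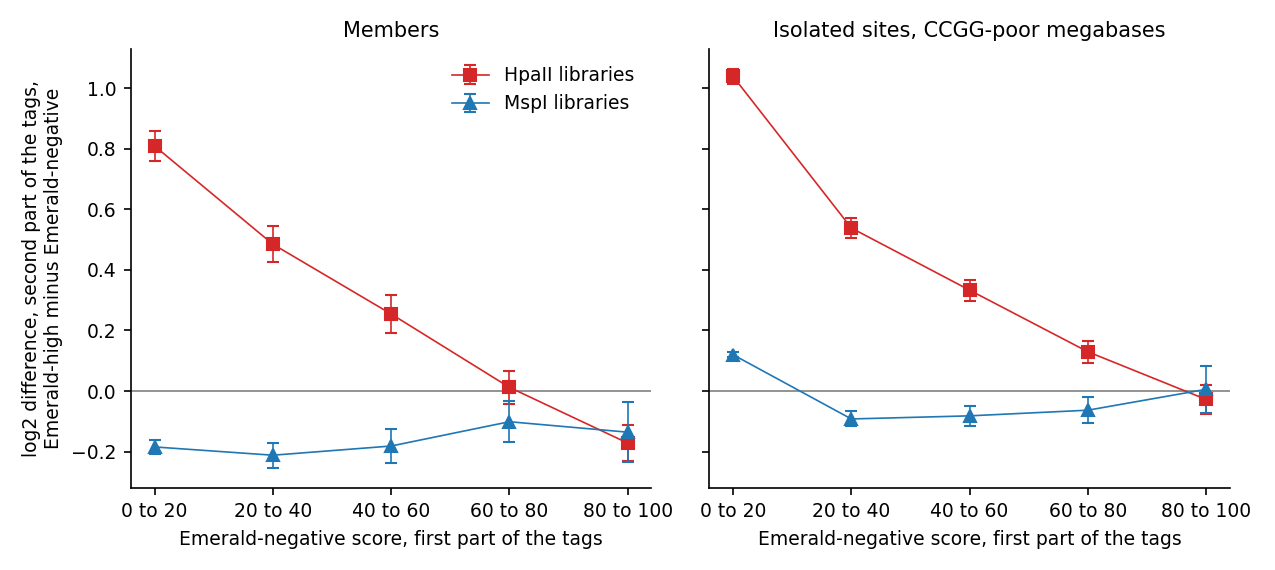
Log2 difference between Emerald-high and Emerald-negative cells in the second part of the tags (vertical axis) by Emerald-negative score in the first part, for members (left) and isolated sites of CCGG-poor megabases (right), with 95% Poisson intervals. At members the HpaII value goes from 0.81 to -0.17 across the strata, and the MspI value stays between -0.21 and -0.10.

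Few single members could be told apart between the libraries. Over all 218697 covered sites of the genome, Fisher's exact test (two-sided, p adjusted by Benjamini-Hochberg and under 0.05, with a 2-fold limit) called 0.101% higher and 0.0297% lower in the Emerald-high libraries. Of the 10045 covered members it called 17 higher (0.169%) and 0 lower. At an unadjusted p under 0.05, 999 members (9.95%) were higher and 34 (0.338%) lower, against 7.76% and 0.890% of all covered sites. Other isolated sites had shares near those of members. At that p, 10.5% of mid-density sites were higher and 0.264% lower, and 10.1% and 0.378% of CCGG-poor sites. With adjusted p and the 2-fold limit, 0.147% of mid-density and 0.179% of CCGG-poor sites were called higher. The test compares the libraries, not the conditions. After counts were divided by 1.36, the overdispersion between the MspI libraries, 4 members were called, all among the 17, and scaling to dense sites gave 545. Over all covered sites these settings called 35 and 9065 higher, and 45 and 3 lower.

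The 17 called members lay in 13 megabases on 5 chromosomes, and 10 of them were on chromosome 8, which holds 7.12% of all members and 12.8% of the covered ones. Members there were more deeply covered, with means of 8.29 and 9.29 MspI tags in Emerald-high and Emerald-negative cells against 5.46 and 6.05 elsewhere. That chromosome had 0.255% of its covered sites of every kind called higher, against 0.0837% on the others. The part of depth in this was not tested. Of these 10, the calls at 72001538, 73646648 and 73691481, had the same tag values, 94 and 67.7 HpaII tags beside 333 and 370 MspI tags in Emerald-high and Emerald-negative cells. With the same values in all 4 libraries, these 3 calls are not independent of each other. Whole tags in all libraries were held by 11 of the 17, and in only 8 did the MspI libraries differ by at most 0.5 on the log2 scale. In Emerald-negative cells the median score of the 17 was 9.19 and in Emerald-high cells 45.1.

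Among called members with whole tags and MspI libraries within 0.5, there were 2, both on chromosome 8. At 94690351 there were 24 HpaII tags in the Emerald-high and 8 in the Emerald-negative fraction, beside 43 and 50 MspI tags. With 1 tag added, log2 HpaII/MspI differed by 2.45 (SE 0.63), with a Fisher's exact adjusted p of 0.0404, and the score went from 9.86 to 47.5. At 72065531 there were 55 and 37 HpaII tags beside 274 and 322 MspI tags, or 1.55 (SE 0.33), with a Fisher's exact adjusted p of 0.00236. The neighbouring CCGG at 72064902, 629 bp away, was also called, with 36.3 and 22.3 HpaII tags beside 164 and 208 MspI tags, but some of its tags are fractional. Neither of the calls with whole tags held after division of counts by the overdispersion. The first was also lost when Emerald-negative HpaII tags were thinned to the depth of the Emerald-high library, and with only sites of whole tags tested (Fisher's exact adjusted p of 0.0592, with the fold change still 2.45).

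Summed over a megabase, members gave enough tags for every bin to be tested. Emerald-high HpaII tags at members ran from 352 to 1477 per bin. For this test, tags of all isolated sites more than 10 kb from a dense site were summed in each of the 2417 autosomal megabases. The log2 HpaII/MspI difference was above 0 in 264 of the 265 member megabases, with a median of 0.42 (quartiles 0.32 and 0.53), against a median of 0.56 in the other 2152. Fisher's exact test, with an adjusted p under 0.05 and a log2 change of at least 0.32, called 88.4% of all megabases higher in Emerald-high cells and 0% lower. Of the member megabases it called 197 (74.3%) higher and 0 lower, and of the others 90.1% higher. With the HpaII libraries alone, 86 member megabases were called higher, among 1763 called higher over all 2417. The SD over member megabases was 0.15, with a mean counting error of 0.09 per bin, and 0.07 in the MspI libraries.

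Megabases were also compared with the average isolated site, by scaling to the tags of the isolated sites tested. This was chosen after the first result was seen. Then 5.59% of all megabases were called higher and 2.36% lower, and of the member megabases 1 was higher and 10 lower. None of these 11 calls was left when counts were divided by an overdispersion of 1.79, and 1 higher and 3 lower calls were then made over all megabases. Across the 265 member megabases the difference had a Spearman correlation of -0.35 with the CCGG count. For the HpaII libraries alone it was -0.36, and for the MspI libraries 0.03. Across all 2417 autosomal megabases the correlation was -0.06 for HpaII/MspI, -0.25 for the HpaII and -0.40 for the MspI libraries. These megabases share the same 4 libraries and differ in base composition.

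**Figure D5:**
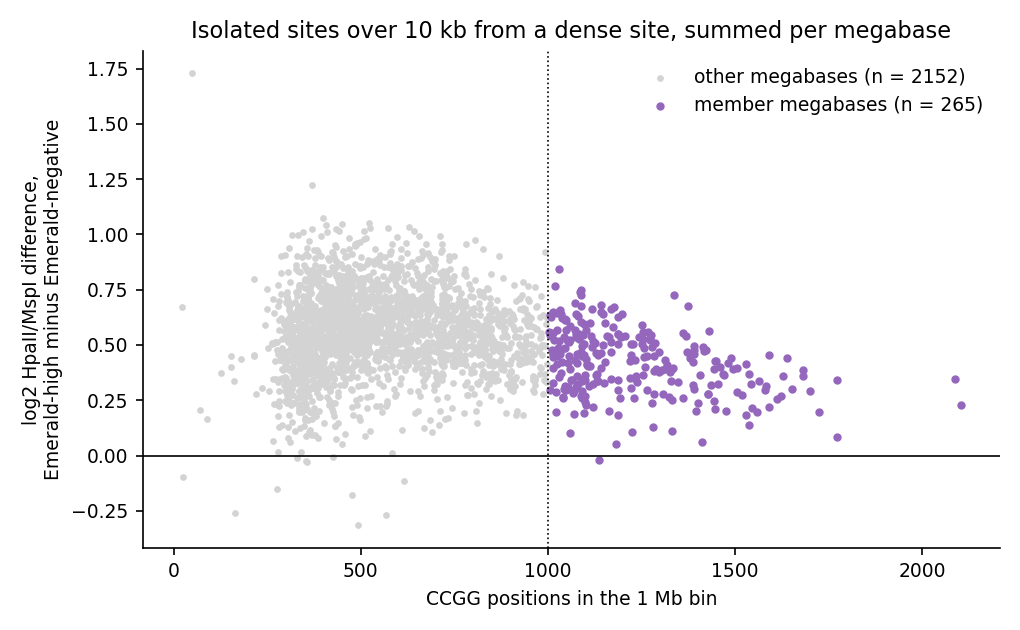
Log2 HpaII/MspI difference of isolated sites more than 10 kb from a dense site, summed per megabase (vertical axis), against the CCGG positions of the megabase (horizontal axis). Of the 265 member megabases, right of the dotted line at 1000, 264 lie above 0, and they range from -0.02 to 0.84.

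The member megabase with the highest difference lay on chromosome 8 at 94000001 to 95000000. Its 316 members held 710 HpaII tags in the Emerald-high and 718 in the Emerald-negative fraction, beside 2227 and 2382 MspI tags. The log2 difference was 0.84 (SE 0.09), with a Fisher's exact adjusted p of 1.59e-19. It contains the called site at 94690351. Next came chromosome 10 at 82000001 to 83000000 with 0.77 (SE 0.12), chromosome 2 at 27000001 to 28000000 with 0.75 (SE 0.10) and chromosome 12 at 111000001 to 112000000 with 0.74 (SE 0.09). In Emerald-negative cells these bins had HpaII/MspI ratios of 0.294, 0.262, 0.304 and 0.490. These ratios enter the difference by which the bins were chosen, so that choice alone pulls them down.

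The lowest member megabase was on chromosome 7 at 19000001 to 20000000. Its 213 members held 504 HpaII tags in the Emerald-high and 877 in the Emerald-negative fraction, beside 922 and 932 MspI tags, or -0.02 (SE 0.10), with a Fisher's exact adjusted p of 0.858. The adjoining bin at 20000001 to 21000000 followed with 0.05 (SE 0.13). Chromosome 4 at 154000001 to 155000000 had 0.06 (SE 0.09), and chromosome 7 at 52000001 to 53000000 had 0.08 (SE 0.09). Their ratios in Emerald-negative cells were 0.918 to 1.39, and the same choice pulls these up. The bin with most members, 338, was on chromosome 5 at 118000001 to 119000000. It had 950 and 1323 HpaII tags beside 1898 and 2284 MspI tags, and a difference of 0.55 (SE 0.08).

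Long stretches of CCGG-rich DNA, over which more tags are summed, had a narrower range than single bins. The 11 runs of at least 5 neighbouring megabases had differences from 0.29 to 0.52. The 14 megabases on chromosome 4 stood at 0.36 (0.315 to 0.408). The highest was the run of 9 megabases on chromosome 2 from 25000001 to 34000000, with 2343 members and 0.52 (0.467 to 0.579). The lowest was the run of 5 on chromosome 11 from 94000001 to 99000000, with 1152 members and 0.29 (0.217 to 0.365).

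Members with fractional tags were few: at 1602 (2.41%) at least 1 library held a fraction of a tag. Their log2 HpaII/MspI difference was 0.46 (0.405 to 0.512), against 0.41 (0.402 to 0.423) at the 64899 members with whole tags. Among 398 covered members with fractional tags, 141 fell into 60 groups with the same values in all 4 libraries, the largest of 5 sites.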

How the data were processed

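The authors deposited estimated counts of HELP tags per CCGG position, as 2 parts and their sum, unscaled and with library totals per the file headers. What divides the parts was not stated. Build mm9 comes from the submitters' processing notes. No source used here names the aligner or how multiply matching tags were treated. No mm9 sequence or annotation was used, so sites carry no gene names and no sequence is shown.

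Tags were scaled to library totals over all sites. Site scores were 100 × (2/π) × arctan(HpaII/MspI). Pooled log2 values have 95% Poisson intervals and shares exact (Clopper-Pearson) ones. Fisher's exact test had its null odds ratio set by the scaling totals, with tags rounded to whole numbers and 1 tag added for fold changes. Tested sites needed 10 tags in both MspI libraries and megabases 20. Overdispersion between the MspI libraries was the mean Pearson chi-square over features with 20 or more summed MspI tags, without the 0.1% most tagged. For sites this replaced the planned measure, the median over the sites tested, after that had come out at 0.804, below the value of 1 for counting error alone. Named sites were the called members with the largest rise or fall, whole tags and MspI libraries within 0.5 (log2), up to 5 each way. Named megabases were the 4 highest and 4 lowest, with 200 or more tags in both MspI libraries, and the one with most members. Called sites outside this rule were named after their values were seen. Member sites, comparison sets and tests were chosen with earlier results of these data known. The test was checked on simulated data and against R 4.3.3. Analyses ran in Python 3.11.15 with scipy 1.17.1, numpy 2.4.6, numba 0.67.0, matplotlib 3.10.9 and pandas 2.3.3.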

Additional observations from a re-analysis of the deposited data

Results flagged for a closer look

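At member sites the enzymes' libraries differed between the fractions in opposite directions. HpaII tags were relatively more frequent in Emerald-high cells (0.25 on the log2 scale) and MspI tags less frequent (-0.16), which together gave the HpaII/MspI difference of 0.414. The other isolated sets had the same signs. HpaII and MspI stood at 0.42 and -0.13 in mid-density megabases and at 0.46 and -0.03 in CCGG-poor ones. At isolated sites near dense sites they stood at 0.12 and -0.17. The difference between the enzymes was not tested across replicates, since each had 1 library per fraction.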

How the results depend on the processing

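The pooled difference at members stayed positive with an interval above 0 under all 9 alternatives tried, from 0.25 (HpaII alone) to 1.13 (scaled to dense sites). Scaling to isolated sites was not run for this value. All isolated autosomal sites together had a difference of 0.49, against 0.41 at members. Members against CCGG-poor sites kept their sign under 9 alternatives, from -0.21 (HpaII alone) to -0.011. That last value, for isolation within 1000 bp, had an interval that included 0; the cause was not tested. The comparisons with mid-density sites and with sites near dense ones, the 3 gradients and the gap between strata (0.87 to 1.06) kept sign and interval under every alternative run for them. Member sites called higher, 17, numbered 545 scaled to dense sites, 9 with whole tags only, 32 with at least 20 MspI tags, 9 with thinning, 4 with overdispersion and 7 without chromosome 8, with 0 called lower in each. Over all sites tested, the higher calls in these settings numbered 9065, 118, 383 (of 30996 tested), 67, 35 and 145, against 220 in the main one. Member megabases called higher, 197, numbered 86 with HpaII alone, among 1763 called higher over all 2417. Scaled to the isolated sites tested, member megabases called were 1 higher and 10 lower, 0 and 15 without the most tagged sites, and 0 and 0 with overdispersion. Over all megabases these were 135 and 57, 116 and 65, and 1 and 3. The share of covered members scoring under 20 in Emerald-high and Emerald-negative cells was 79.4% and 92.5% scaled to dense sites and 40.3% and 61.5% with whole tags, and 61.4% in Emerald-negative cells with at least 20 MspI tags. The causes were not tested. No paired analysis was possible because each enzyme and fraction had 1 library. The trend, mid-density, chromosome 8, site overdispersion and isolated-site scaling alternatives, the strata gap and the distance classes without the most tagged sites, and all alternatives for rarely cut members against CCGG-poor sites were chosen after seeing the data. Only 15.1% of members had enough MspI tags for a score, so most single members could not be compared at this depth.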
